A study of Sus scrofa with 189 samples.

Results

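Muscle of 10 pigs with much intramuscular fat was compared with muscle of 11 pigs with little, in the libraries whose titles carry the mark "(re-analyzed)". These 21 libraries were chosen from 189 by that mark in the title and by the label of intramuscular fat content (IMF): 4.5 or more was taken as high and under 2.5 as low. All 21 marked libraries fell on one of these sides. What the mark means is not explained in the labels.

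RNA with poly(A) tails was sequenced from the longissimus dorsi, the long muscle of the back and loin, of first-generation crosses between Duroc boars and Luchuan sows. The high-IMF and the low-IMF animals shared breed cross, farm, diet and abattoir, had received no treatment named in the labels, and were slaughtered at 210 days of age, give or take 6 days. IMF was 6.03 ± 0.636 in the high group (SD, n = 10, from 4.83 to 6.84) and 1.69 ± 0.433 in the low group (SD, n = 11, from 0.77 to 2.33), in a unit that the labels do not state. Parents are not named, and the labels give the number of sows once as 112 and once as 158. Sex is not given either, so neither parent nor sex could enter a test. Among the low-IMF animals, libraries 20 and 21 share the first 9 digits of their title code, as do libraries 33 and 34, and no other pair of the 21 does. The first 6 digits are also shared by high-IMF library 31 with low-IMF libraries 33 and 34, and by high-IMF libraries 136, 141 and 148. What the digits stand for is not stated. Animals with no mark and the same IMF limits (18 high, 4.81 ± 0.305, and 21 low, 2.06 ± 0.346) served for comparison.

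Fat cells lie between the bundles of muscle fibres and within them, where they make up the marbling of meat. They store fatty acids as triglyceride in lipid droplets coated by perilipins and CIDE proteins, and they secrete hormones such as adiponectin and leptin. Muscle fibres also hold small lipid droplets, but fat cells are the main source of these hormones. In RNA from whole muscle, fewer cells of a type and less RNA per cell cannot be told apart.

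Values are FPKM, fragments scaled by transcript length and by library size, summed over the transcripts of a gene. Differences are high minus low IMF in log2(FPKM + 1), which understates the change of genes at low levels. The 21 libraries were alike in their sums: the summed FPKM averaged 422381 ± 18461 in high IMF and 418578 ± 18680 in low IMF (permutation p = 0.643). The 10 most abundant genes took 29.4 ± 2.50% of the sum in high IMF and 31.8 ± 4.85% in low IMF (permutation p = 0.185, adjusted p = 0.643 over 5 library measures). Low-IMF library 104 stood apart in that share, with 20.0%, and in its 9811 genes at 1 FPKM or more, against 8780 to 9595 in the high-IMF libraries. Without it the share differed by -3.58 percentage points (permutation adjusted p = 0.0427). Library 104 was singled out for its low share, so leaving it out widens the difference in any case. Leaving out each library in turn gave differences of -3.58 to -1.73 percentage points. No pair of the 21 libraries was identical, and their correlations over genes lay between 0.939 and 0.977.

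The labelled tissue was checked against marker genes. Actin ACTA1 of the muscle fibre had a median of 18204 FPKM in high IMF and 26335 FPKM in low IMF. The other fibre markers had medians closer together. In high and low IMF these were 3084 and 3347 FPKM for CKM and 13478 and 12390 FPKM for MYLPF. They were 13052 and 13049 FPKM for TNNT3 and 863 and 826 FPKM for MYH7. The 7 fat cell markers were all in the table at far lower levels, and ADIG among them was listed at 0 in low-IMF libraries 33 and 128. Their summed level ran from 89.2 to 194 FPKM in high IMF (median 114) and from 28.2 to 104 FPKM in low IMF (median 74.6). PLIN4, a lipid droplet protein that muscle fibres also make, was the most abundant of the 7 in both groups, with medians of 57.4 and 46.0 FPKM in high and low IMF.

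Which genes differ between muscle of high and of low IMF was asked over the 10717 genes that averaged 0.5 FPKM or more across the 189 libraries. A gene was called where limma's p, adjusted by Benjamini and Hochberg over all of these, was under 0.05. In the high-IMF libraries 9 genes were higher, 0.0840% of those tested, and 0 were lower (65 were lower at an unadjusted p under 0.05). Of the 9, 6 are on the list of fat cell hormones and identity genes and 2 on that of lipid droplets. The last, ATP6V1F, is on none of the lists. At an unadjusted p under 0.05, 410 genes were higher (3.83%) and 65 lower (0.607%). That imbalance moved with the scaling: 222 of 430 such genes were higher when each library was shifted to the same median. Without library 104, 17 genes were called higher, the 9 among them.

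**Figure D1:**
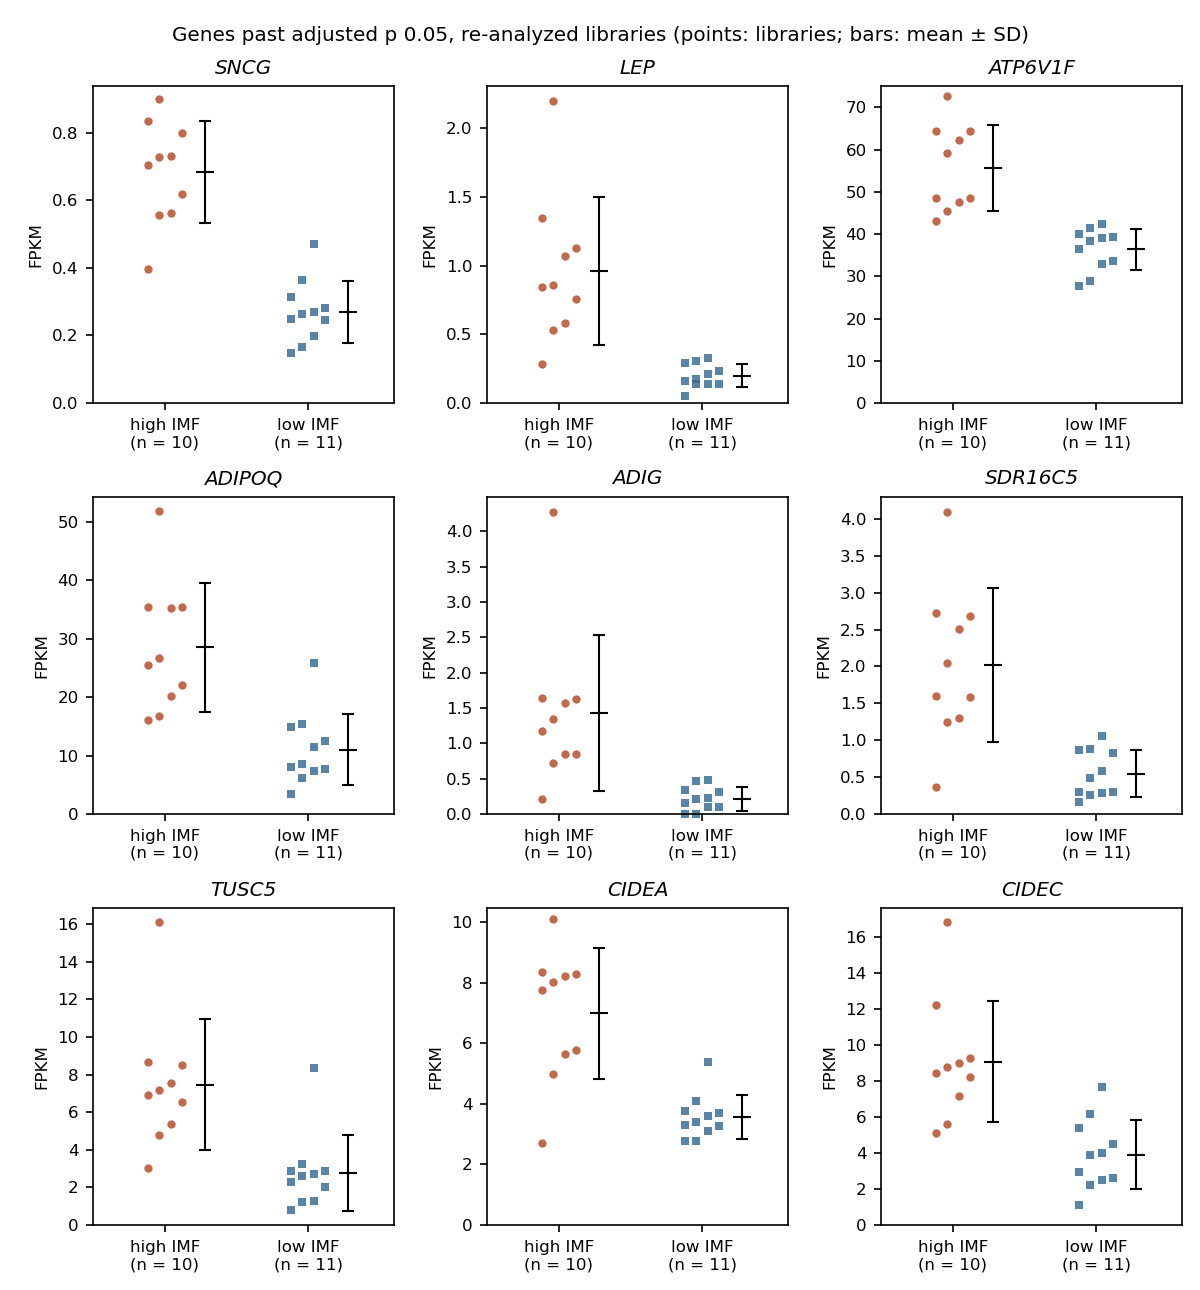
FPKM of the 9 called genes in each of the 10 high-IMF and 11 low-IMF re-analyzed libraries (points), with the mean and SD of each group (bars). ATP6V1F is the one gene whose groups do not overlap. Low-IMF library 104 lies inside the high-IMF range for ADIPOQ and above the high-IMF median for TUSC5.

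Of the fat cell hormones, ADIPOQ encodes adiponectin, which fat cells secrete in large amounts. ADIPOQ ran from 16.1 to 51.8 FPKM in the high-IMF libraries (median 26.0) and from 3.49 to 25.9 FPKM in the low-IMF libraries (median 8.47). All 10 high-IMF libraries lay above the low-IMF median, and of the low-IMF libraries library 104 alone, at 25.9 FPKM, lay within the high range. The means were 28.5 ± 11.1 FPKM (SD, n = 10) and 11.0 ± 6.15 FPKM (SD, n = 11) in high and low IMF, so that ADIPOQ stood 1.36 log2 units higher (SE 0.250, adjusted p = 0.0311 in limma). All 3 listed transcripts of ADIPOQ had the higher mean in high IMF, at ratios of 2.23, 1.79 and 4.24. The gene lies on chromosome 13 from 124633684 to 124648055 (build Sscrofa11.1, as are all positions here).

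LEP encodes leptin, the hormone by which fat stores signal to the brain. LEP was listed at 0.282 to 2.20 FPKM in high IMF (median 0.849) and at 0.0519 to 0.327 FPKM in low IMF (median 0.178). Of the high-IMF libraries, 9 were above every low-IMF library, and library 59 alone, at 0.282 FPKM, was not. Means of 0.961 ± 0.536 FPKM in high IMF and 0.198 ± 0.0844 FPKM in low IMF (SD) made a ratio of 4.87, and on the log scale LEP was higher by 0.67 (SE 0.113, limma adjusted p = 0.0214). LEP lies on chromosome 18 from 20106179 to 20123451.

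ADIG encodes adipogenin, a small membrane protein of fat cells. ADIG ran from 0.219 to 4.27 FPKM in high IMF (median 1.26), while it ran from 0, as listed in libraries 33 and 128, to 0.486 FPKM in low IMF (median 0.207). High-IMF library 148 stood far above the rest, with 4.27 FPKM against 1.64 FPKM in the next library. Still, 9 of 10 high-IMF libraries were above every low-IMF one, and ADIG was higher by 0.90 (SE 0.166, limma adjusted p = 0.0311).

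SNCG, the gene of gamma-synuclein, is known from nerve and from fat cells. SNCG had a low level in all 21 libraries, between 0.397 and 0.900 FPKM in high IMF (median 0.716) and between 0.147 and 0.471 FPKM in low IMF (median 0.262). A single library of each group lay inside the range of the other. SNCG had the smallest p of all genes, with a difference of 0.40 (SE 0.0647, limma adjusted p = 0.0212). With 19 of the 21 single libraries left out in turn, SNCG stayed past the threshold, the most of the 9 genes, and LEP did with 18. ADIPOQ did with 8, ATP6V1F with 10, ADIG with 7, SDR16C5 with 5, TUSC5 and CIDEC with 4 each and CIDEA with 3.

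TUSC5, also called TRARG1, takes part in the traffic of the glucose transporter GLUT4 in fat cells. TUSC5 ran from 3.04 to 16.1 FPKM in high IMF (median 7.04) and from 0.808 to 8.34 FPKM in low IMF (median 2.61). The highest low-IMF value was again that of library 104, and the next highest was 3.22 FPKM in library 21. TUSC5 was higher by 1.22 (SE 0.238, limma adjusted p = 0.0459), and by 1.36 without library 104 (adjusted p = 0.00702). SDR16C5, a retinol dehydrogenase that makes retinaldehyde, ran from 0.362 to 4.10 FPKM in high IMF (median 1.82) and from 0.161 to 1.06 FPKM in low IMF (median 0.492). Library 59 was the one high-IMF library inside the low range. SDR16C5 was higher by 0.91 (SE 0.172, limma adjusted p = 0.0372).

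Among the coat proteins of lipid droplets, CIDEC joins small droplets into large ones. CIDEC ran from 5.12 to 16.8 FPKM in high IMF (median 8.61) and from 1.10 to 7.63 FPKM in low IMF (median 3.86). In 7 of 10 high-IMF libraries it was above every low-IMF library. CIDEC was higher by 1.08 (SE 0.214, limma adjusted p = 0.0459). Its relative CIDEA, best known from brown fat in mice, ran from 2.70 to 10.1 FPKM in high IMF (median 7.89) and from 2.76 to 5.39 FPKM in low IMF (median 3.40). High-IMF library 141 held the lowest CIDEA value of all 21, and 8 of 10 high-IMF libraries were above every low-IMF one. CIDEA was higher by 0.76 (SE 0.151, limma adjusted p = 0.0459).

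ATP6V1F encodes a subunit of the proton pump that acidifies lysosomes and other vesicles, and is used by all cells. ATP6V1F ran from 43.1 to 72.8 FPKM in high IMF (median 53.9) and from 27.8 to 42.4 FPKM in low IMF (median 38.3). It was the 1 gene of the 10717 tested (0.00933%) whose lowest high-IMF library was above its highest low-IMF library, and 0 genes (0%) were separated the other way round. ATP6V1F was higher by 0.59 (SE 0.107, limma adjusted p = 0.0311). It lies on chromosome 18 from 19753759 to 19756658, on the same chromosome as LEP.

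Several of the 9 calls rested on the scale chosen, with the difference positive each time. With a pseudocount of 0.1, SDR16C5, TUSC5 and CIDEA (adjusted p = 0.0611 each) and CIDEC (0.0755) were not past the threshold, and with no filter on low values TUSC5, CIDEA and CIDEC were not (0.0630 each). With the median shift SNCG (0.135), ATP6V1F (0.113), ADIG (0.0686) and CIDEA (0.0730) were not, and with quantile normalization CIDEA was not (0.0721). ADIPOQ and LEP passed under each of these 4 alternatives, and they were the 2 genes that passed when the unmarked libraries shared in the estimate of the spread. With IMF as a continuous measure ADIPOQ did not pass (limma adjusted p = 0.0551). With 1 animal per shared title code neither ADIPOQ nor LEP did (0.0741 each).

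Beyond the 9 genes, the next 16 by p did not pass the threshold, and 13 of them had positive differences, as had 73% of all genes. PLIN1, the perilipin of large fat cell droplets, had 15.7 to 40.8 FPKM in high IMF (median 24.4) and 4.15 to 28.0 FPKM in low IMF (median 9.43). The difference of PLIN1 was 1.16 (SE 0.248, limma adjusted p = 0.0979). Without library 104, whose 28.0 FPKM was the highest of the low group, it was 1.29 and past the threshold (adjusted p = 0.0141). Leaving out the highest low-IMF value raises the difference in any case. Of the 21 fits that each left out a single library, PLIN1 passed in that 1 alone. Of its 2 listed transcripts, the one of 9 exons had a ratio of means of 2.37 and the one of 8 exons a ratio of 1.04.

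Enzymes that make and take up fat stood close behind. DGAT2, which adds the last fatty acid to a triglyceride, had 5.42 to 27.0 FPKM in high IMF (median 18.0) and 0.734 to 12.3 FPKM in low IMF (median 5.76), a difference of 1.39 (SE 0.315, adjusted p = 0.147). LPL, the lipase that frees fatty acids from blood lipoproteins, had 22.0 to 62.1 FPKM in high IMF (median 30.7) and 8.31 to 29.8 FPKM in low IMF (median 19.3). Its difference was 0.78 (SE 0.180, adjusted p = 0.166). For PNPLA3, a droplet protein made in fat and liver, the difference was 0.38 (SE 0.0845, adjusted p = 0.141). For PPP1R1B, a regulator of protein phosphatase, it was 0.77 (SE 0.163, adjusted p = 0.0924).

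Others of the 16 with positive values were ALDOC, an aldolase (0.86), CYP4B1, a cytochrome P450 (0.83), and CKMT2, the mitochondrial creatine kinase of muscle (0.61). SOD3, the secreted superoxide dismutase (0.57), ARL2BP, which binds a small GTPase (0.56), GYPC, a membrane protein of red blood cells (0.46), SAL1, a salivary lipocalin of pigs (0.45), and FAM149A (0.36) had smaller ones. These 8 had adjusted p values between 0.267 and 0.379. Without library 104, PLIN1, PPP1R1B, ALDOC and SOD3 were called, as were ANXA2, MEF2B, CYP4V2 and FABP4, of which the first 2 were named after their values were seen.

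Of those with negative values, KRT14, a keratin of basal skin cells, had 0.068 to 1.45 FPKM in high IMF (median 0.428) and 0.875 to 4.16 FPKM in low IMF (median 1.28), so the groups overlapped. Its difference was -0.66 (SE 0.167, limma adjusted p = 0.330). BEX1, a gene of the brain-expressed X-linked family, had 0.641 to 2.05 FPKM in high IMF (median 1.34) and 1.36 to 4.70 FPKM in low IMF (median 2.30), a difference of -0.61 (SE 0.151, adjusted p = 0.303).

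Of the 18 fat cell hormones and identity genes listed, 11 passed the filter on low values and 6 were called higher. Their median difference was 0.54, against 0.07 over all 10717 genes. The list was drawn up with earlier results of these data known, so its count is a description. RBP4, the retinol carrier of blood, was not past the threshold, with medians of 1.54 FPKM in high IMF and 0.877 FPKM in low IMF (difference 0.54, SE 0.166, adjusted p = 0.697). Of 16 genes of lipid droplets and lipolysis, 2 were called, and the median was 0.16 (0.09 with the median shift, 0.10 with quantile normalization).

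**Figure D2:**
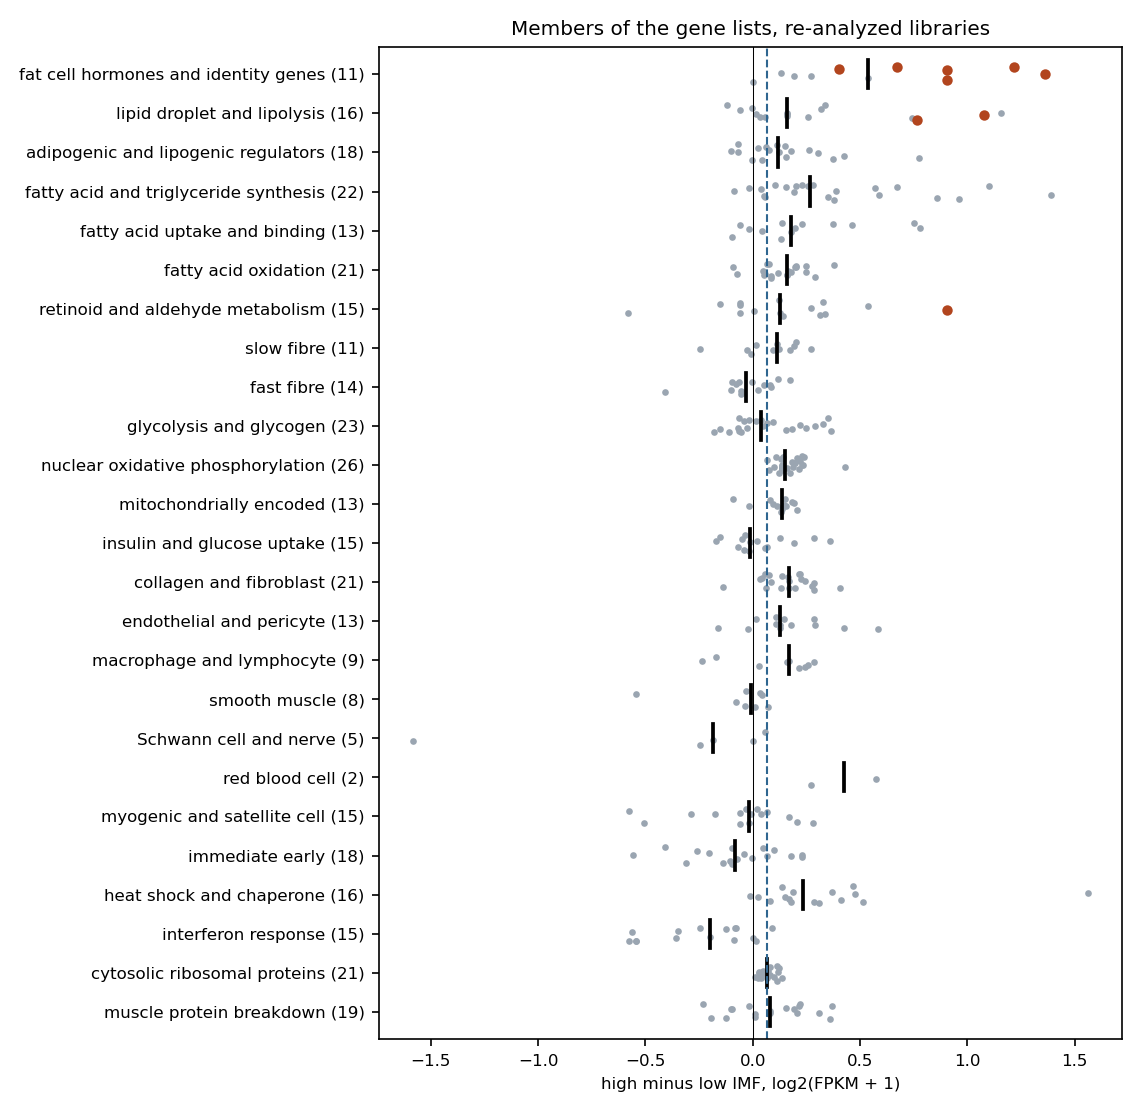
High minus low IMF difference in log2(FPKM + 1) for each tested member of the 25 gene lists, with the number of members in parentheses, the list median as a black bar, called genes as large points and the median over all genes (0.07) as a dashed line. Called genes stand in 3 lists, fat cell identity, lipid droplet and, through SDR16C5, retinoid metabolism.

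No gene of fatty acid and triglyceride synthesis was called, but 11 of 22 were higher at an unadjusted p under 0.05, against 3.83% of all genes. The median of these 22 was 0.27, and it was 0.20 with the median shift. Besides DGAT2 and PNPLA3 this group held PC, the pyruvate carboxylase, with medians of 35.2 FPKM in high IMF and 24.9 FPKM in low IMF (difference 0.59, SE 0.161, adjusted p = 0.435). Of the 13 genes of fatty acid uptake and binding, 4 were higher at an unadjusted p under 0.05, or 3 with the median shift and 2 with quantile normalization. FABP4, the fatty acid carrier of fat cells, had medians of 63.9 FPKM in high IMF and 37.4 FPKM in low IMF (difference 0.75, SE 0.218, adjusted p = 0.625), and DBI, which binds acyl-CoA, had 66.8 and 54.6 FPKM (0.37, adjusted p = 0.807).

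Of 18 adipogenic and lipogenic regulators, 0 were called and 2 were higher at an unadjusted p under 0.05 (3.83% of all genes were), CEBPA and PPARG. The median was 0.12, or 0.05 with the median shift and 0.07 with quantile normalization. CEBPA, which drives late fat cell differentiation, had medians of 9.04 FPKM in high IMF and 4.06 FPKM in low IMF (difference 0.77, SE 0.211, adjusted p = 0.435). PPARG, the receptor at the head of that programme, had medians of 1.19 FPKM in high IMF and 0.630 FPKM in low IMF (0.42, SE 0.128, adjusted p = 0.665). SREBF2, which controls cholesterol synthesis, had a difference of 0.26 (SE 0.142, adjusted p = 0.986). Retinoid and aldehyde metabolism had 1 of 15 called, SDR16C5, and a median of 0.13 (0.06 with the median shift, 0.07 with quantile normalization).

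Genes by which the fibre burns fuel gave 0 calls. Fatty acid oxidation had a median of 0.16 over 21 genes, with HADH at 0.25 (SE 0.107, adjusted p = 0.986). That median was 0.09 with the median shift and 0.06 with quantile normalization, and the number of positive genes, 19 of 21, was 15 and 12. Differences were positive in 26 of 26 nuclear genes of oxidative phosphorylation, against 73% of all genes, with a median of 0.15. With the median shift all 26 were still positive at a median of 0.08, and with quantile normalization 23 were, at 0.05. Of all genes, 50.6% and 50.3% were positive with these scalings. In the unmarked libraries the median of the 26 genes was 0.02, without scaling. In this group SDHC, a subunit of succinate dehydrogenase, had medians of 36.0 FPKM in high IMF and 28.9 FPKM in low IMF (difference 0.43, SE 0.169, adjusted p = 0.986). NDUFS3 of complex I had 0.24 (SE 0.0908) and SDHD had 0.23 (SE 0.101). The 13 genes of the mitochondrial genome had a median of 0.14 (0.07 with either scaling), with COX1 at 0.21, COX3 at 0.19 and COX2 at 0.14.

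Fibre type genes gave 0 calls as well. Of the slow fibre, MYL2 (0.27), TNNI1 (0.20) and CASQ2 (-0.24) had unadjusted p values of 0.358 or more. Of the fast fibre, MYH2, the myosin of fast oxidative fibres, had medians of 4685 FPKM in high IMF and 5972 FPKM in low IMF (difference -0.41, SE 0.175, adjusted p = 0.986). MYOZ1 had 0.08 and ACTN3 -0.10. Myosin heavy chain genes are near-identical in sequence and may share reads, so the MYH2 value is uncertain. The 11 slow genes had a median of 0.11 (0.05 with the median shift, 0.02 with quantile normalization) and the 14 fast genes one of -0.03 (-0.10 and -0.03). The 23 genes of glycolysis and glycogen, which carry 22 symbols, had a median of 0.04 that became -0.03 with either of these scalings. GBE1 and UGP2 of glycogen synthesis had 0.35 and 0.33, and PPP1R3C had 0.25. Insulin and glucose uptake had a median of -0.01 over 15 genes (0.03 without library 104), with PIK3R1 at 0.36, INSR at -0.17 and AKT2 at 0.13.

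Markers of other cells than fibres and fat cells were read from their own lists, with 0 calls in each. Collagen and fibroblast genes had a median of 0.17 over 21 genes, with COL3A1 at 0.41, SPARC at 0.29 and COL15A1 at 0.27. That median was 0.10 with the median shift and 0.06 with quantile normalization, and 16 of 21 genes were positive with either, in place of 20. Of all genes, 50.6% and 50.3% were positive with these scalings, in place of 73%. In the unmarked libraries the median of this list was -0.06. The 4 fibroblast markers summed to medians of 433 FPKM in high IMF and 356 FPKM in low IMF, with ranges of 255 to 632 and 150 to 890 FPKM. Endothelial genes had 0.13 over 13 genes (0.06 with the median shift, 0.04 with quantile normalization), with CDH5 of the vessel wall at 0.43 (SE 0.191), PECAM1 at 0.58 and ENG at 0.18. Macrophage and lymphocyte genes had 0.17 over 9 (0.10 and 0.12 with these scalings), with TYROBP at 0.28, C1QC at 0.26 and C1QB at 0.24. LYZ (-0.235) and CD163 (-0.173) went the other way, and the median of this list in the unmarked libraries was -0.18. Smooth muscle had -0.01 over 8 (0.06 without library 104), with CNN1 at -0.55 (SE 0.260), TAGLN at 0.07 and MYL9 at 0.04. TAGLN was at -0.05 with quantile normalization, and MYL9 at -0.02 with the median shift and -0.04 with quantile normalization.

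Schwann cell and nerve genes had a median of -0.18 over 5, among them MBP at -0.18 and PMP22 at -0.25. The 2 red blood cell genes were at 0.58 for HBB and 0.27 for ALAS2, and their sum ran from 13.9 to 150 FPKM in high IMF and from 10.6 to 69.4 FPKM in low IMF. The part of these other cells in the 9 called genes was not tested.

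Among the remaining lists, 0 genes were called. Heat shock and chaperone genes had a median of 0.24 over 16 (0.17 with the median shift, 0.14 with quantile normalization), with HSPE1 at 0.47 (SE 0.183), HSP90AA1 at 0.48 and the small heat shock protein CRYAB at 1.56 (SE 0.864). CRYAB ran from 5.99 to 572 FPKM in high IMF and from 3.18 to 418 FPKM in low IMF, so that its groups overlapped, with 7 of 11 low-IMF libraries inside the high range. Interferon response genes had a median of -0.20 over 15, with MX1 and ISG15 at -0.54 each. Immediate early genes had -0.08 over 18 (0.01 without library 104), with NR4A1 at -0.56 (SE 0.243), BTG2 at -0.41 and NR4A3 at 0.23. Myogenic and satellite cell genes had -0.02 over 15 (0.01 without library 104), with NCAM1 at -0.58, MYOD1 at -0.51 and MYH3 at -0.29. The ribosomal proteins had 0.06 over 21 (RPL5 0.13, RPL14 0.12, RPL9 0.12), a value that was gone with the median shift, where 9 of the 21 were positive in place of 21. Muscle protein breakdown had 0.08 over 19, or -0.02 with quantile normalization, with FOXO4 at 0.31, UBB at 0.22 and CAPN1 at 0.21.

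Whether the marker genes follow IMF among animals of one group was asked for ADIPOQ, LEP and CIDEC. Over the 10 high-IMF libraries Pearson's r with IMF was -0.0172 for ADIPOQ, 0.0510 for LEP and 0.0379 for CIDEC. Over the 11 low-IMF libraries it was 0.159, 0.410 and 0.193. None of these 6 relations passed (permutation adjusted p = 0.961 for each r). Spearman's rho was -0.127, -0.115 and -0.0545 in high IMF and 0.346, 0.346 and 0.269 in low IMF (permutation adjusted p between 0.844 and 0.891). With the 2 animals most distant from the group's median IMF removed, r came to 0.210, 0.196 and 0.208 in high IMF and 0.502, 0.218 and 0.312 in low IMF. The highest ADIPOQ value was that of high-IMF library 148 at an IMF of 6.50, while library 160, at the highest IMF of 6.84, had 25.4 FPKM.

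**Figure D3:**
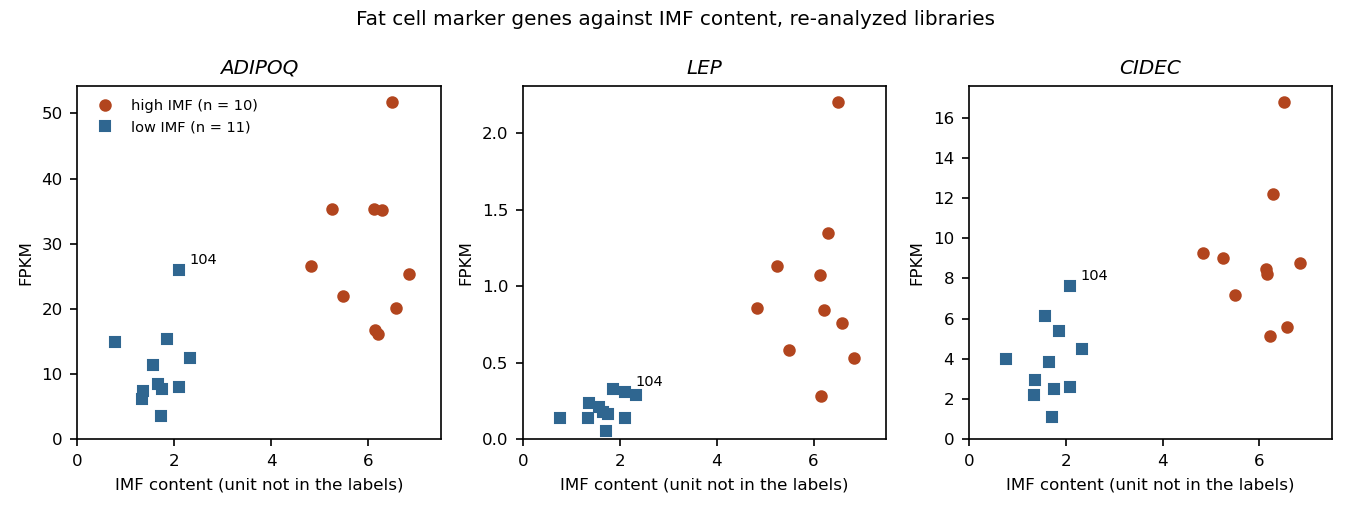
FPKM of ADIPOQ, LEP and CIDEC (y axis) against IMF content (x axis, unit not in the labels) in the 10 high-IMF libraries (circles) and the 11 low-IMF libraries (squares). The groups lie apart on the IMF axis with no animal between 2.33 and 4.83, and within a group the points show no relation that passed the test.

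The genes most like ADIPOQ over the 21 libraries were named by Pearson's r of log2(FPKM + 1), as a description. The points share the 2 IMF groups. PLIN1 was first with 0.983, followed by CIDEC with 0.956 and TUSC5 with 0.918. HACD2, an enzyme of fatty acid elongation, had 0.908, CYP4V2, a fatty acid hydroxylase, 0.900, and PPP1R1B 0.893. RBP4 and CA5B, a mitochondrial carbonic anhydrase, had 0.882 each and MAL2 0.879, while ENSSSCG00000037487, with no symbol, had 0.898. Within the high-IMF libraries alone PLIN1 had 0.938 and within the low-IMF libraries alone 0.987, so it was like ADIPOQ within each group too. PPP1R1B had 0.572 and 0.908 in high and low IMF.

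The proportion of fat cell genes to ADIPOQ was compared between the groups. Because both are per length, LEP was set against ADIPOQ within each library. The genes for this were chosen after their values were seen, so their p values in the re-analyzed libraries are a description. LEP stood at 1.68% to 5.22% of ADIPOQ in high IMF (median 3.21%) and at 0.936% to 3.19% in low IMF (median 2.10%). The log2 ratio was higher by 0.77 in high IMF (permutation p = 0.00204, adjusted p = 0.0143 over 7 genes), and by 0.71 without library 104 (adjusted p = 0.0220). In unmarked libraries the difference was 0.45 and did not pass (permutation p = 0.0681). PLIN1 stood at 75.7% to 115% of ADIPOQ in high IMF (median 98.8%) and at 95.5% to 128% in low IMF (median 110%), a log2 ratio lower by 0.22 in high IMF (difference -0.22, permutation p = 0.00534, adjusted p = 0.0187). In unmarked libraries that difference was -0.13 (permutation p = 0.257). By transcript, the ratio of the high to the low mean was 2.37 and 1.04 for PLIN1 and 2.23, 1.79 and 4.24 for ADIPOQ. The PLIN1 proportion may therefore depend on which transcripts are summed, which was not tested. For SNCG, SDR16C5, TUSC5, CIDEA and CIDEC the adjusted p values were 0.108 or more. ADIG was left out because 2 libraries list it at 0.

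Whether the differences appear in other animals was read from the unmarked libraries, whose groups lie closer together in IMF. There 329 genes were higher at an unadjusted p under 0.05 (3.07%) and 71 were lower, and 0 passed (limma; smallest adjusted p = 0.475). All 9 genes had positive differences there, as had 65.7% of all genes, and 6 of the 9 had an unadjusted p under 0.05. All 9 differences were smaller than in the re-analyzed libraries. The 9 were chosen by their differences in the re-analyzed libraries, and that choice alone makes smaller values likely in other animals. The differences of ADIPOQ were 1.36 in re-analyzed and 0.78 in unmarked libraries (SE 0.250 and 0.208), and those of LEP were 0.67 and 0.37 (SE 0.113 and 0.0923). SNCG had 0.40 and 0.30, SDR16C5 0.91 and 0.58, TUSC5 1.22 and 0.70, ADIG 0.90 and 0.36, CIDEC 1.08 and 0.54, and CIDEA 0.76 and 0.32. ATP6V1F had 0.59 in the re-analyzed and 0.11 in the unmarked libraries (unadjusted p = 0.352).

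The difference between the sets was itself tested, and 0 genes passed (limma, smallest adjusted p = 0.999). Of the 10717 genes, 211 had an unadjusted p under 0.05, a smaller share than chance gives at that threshold. Of the 9, ATP6V1F (difference 0.48, SE 0.184, unadjusted p = 0.0120) and ADIG (0.54, SE 0.261, unadjusted p = 0.0422) were under 0.05 before adjustment. The choice of the 9 in the re-analyzed libraries also favours small p values in this test. Of the 16 genes that followed by p, 15 had the same sign in the unmarked libraries, where 65.7% of all genes were positive. The exception was CKMT2 with 0.61 and -0.06. PPP1R1B had 0.77 and 0.68, PLIN1 1.16 and 0.66, and DGAT2 1.39 and 0.53.

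**Figure D4:**
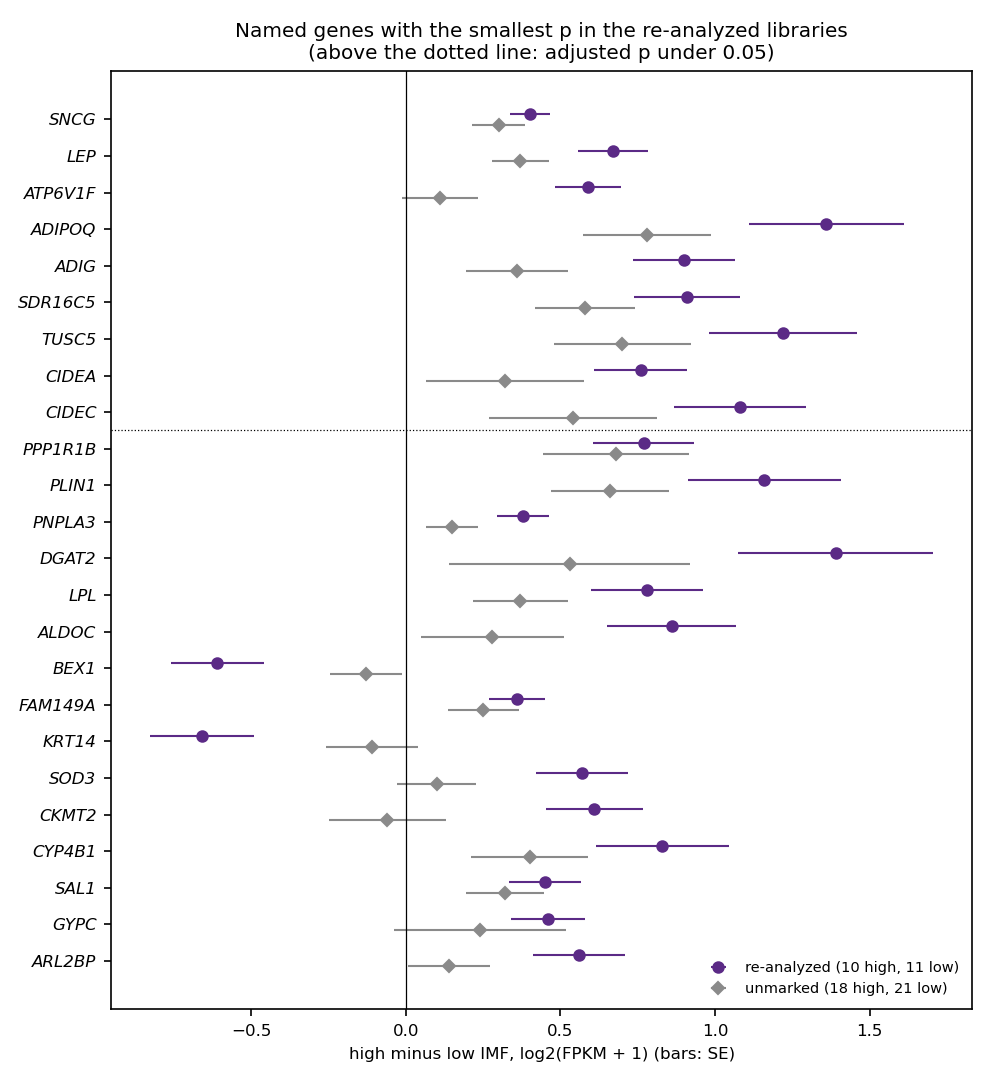
High minus low IMF difference in log2(FPKM + 1) with its SE for the named genes of smallest p in the re-analyzed libraries (circles), beside the same genes in the unmarked libraries (diamonds). The 9 genes above the dotted line passed in the re-analyzed libraries, and all of them lie to the right of 0 in both sets. Of all genes, 73% do in the re-analyzed and 65.7% in the unmarked libraries.

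The title codes begin with 15 in 5 high-IMF and 6 low-IMF libraries and with 16 in 5 and 5. Within the libraries of 15, all 9 genes had positive differences, from 0.26 for SNCG to 1.21 for ADIPOQ, and within those of 16 as well, from 0.49 for ATP6V1F to 1.51 for ADIPOQ. In each, all 9 had an unadjusted limma p under 0.05 and 0 of the 9 passed after adjustment. The 9 genes were chosen in these same libraries, so their signs and unadjusted p values here are a description and no separate support. With 1 animal for each shared title code, SNCG alone passed. Single libraries also set how many genes were called. Leaving out low-IMF library 14, or low-IMF library 189, left 0 calls, with smallest adjusted p values of 0.0551 and 0.0547, whereas 12 genes were called without high-IMF library 35, 10 without high-IMF library 141 and 17 without low-IMF library 104, and fewer than 9 without any other. Over all of these, the difference of ADIPOQ lay between 1.23 and 1.49, that of LEP between 0.59 and 0.73 and that of SNCG between 0.38 and 0.43.

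**Figure D5:**
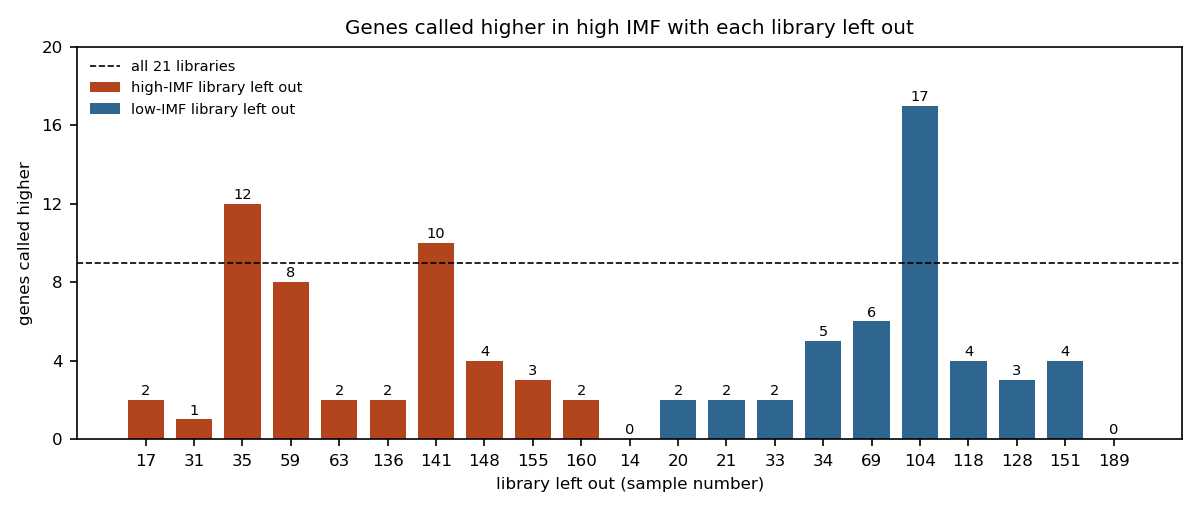
Number of genes called higher in high IMF (y axis) when each of the 21 libraries is left out (x axis, by sample number), beside the 9 called with all (dashed line). The count runs from 0 without library 14 or 189 to 17 without library 104.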

How the data were processed

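The authors deposited 1 value per transcript and library. The header names no unit. The deposited values were taken as FPKM, from the column layout that StringTie writes for Ballgown. HISAT2 2.0.5, StringTie 1.3.3 and the build Sscrofa11.1 are named in the submitters' processing notes, and the annotation release is not given in the sources used here. No counts are given, so depth is unknown and errors are the spread between animals. FPKM also depend on the most abundant genes of a library. Values were summed per gene over listed transcripts (18114 of 12651 genes), none of which is at 0 in more than 9.52% of libraries.

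limma 3.58.1 (R 4.3.3, mean trend, 2-sided) was fitted to log2(FPKM + 1) of the 10717 genes that averaged 0.5 FPKM or more, and p-values were adjusted by Benjamini and Hochberg. The fit was checked on simulated data. Single measures were tested by permutation (100000 resamples, 2-sided). P-values treat animals as independent. Alternatives were another pseudocount, other filters and scalings, other fits, subsets by title digits or code, and each library left out. Those without library 104 alone for lists, ratios and library measures were chosen after seeing the data. The animals compared and the 25 gene lists were chosen with earlier results of these data known. Named are the marker genes, the called genes, the next by p up to 25, and up to 3 genes of smallest p from each list. Some genes that this rule names are not reported here.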

Additional observations from a re-analysis of the deposited data

Results flagged for a closer look

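In the 10 high-IMF libraries, the highest or the lowest value of 88 named genes and 5 library measures was compared with its nearest neighbour (Dixon's test, on log2 values for genes), and 5 of the 93 stood far from the others. Chance gives about 1 in 20. ADIG was highest in library 148, with 4.27 FPKM against 1.64 FPKM in the next library. NR4A3, an immediate early gene, was highest in library 59, with 2.54 FPKM against 0.628 FPKM. AKT2, a kinase of insulin signalling, was lowest in library 160, with 20.9 FPKM against 39.0 FPKM. Library 17 had the lowest share of summed FPKM in the 10 most abundant genes, 23.5% against 28.1%, and the highest median log2 value of tested genes, 2.56 against 2.40. Groups of 11 were not examined in this way.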

How the results depend on the processing

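With all 21 libraries 9 genes were called higher and 0 lower. The count of higher genes was 5 with a pseudocount of 0.1, 5 with a mean of at least 5 FPKM, 5 with the title digits as a covariate, 3 with IMF as a continuous measure, 2 with 1 spread over 4 groups, 1 with 1 animal per shared code, 0 within digits 15 and 1 within digits 16 (GABPA). Fewer libraries entered the last 3. With a mean of at least 5 FPKM, LEP, SNCG, ADIG and SDR16C5 fell under the filter, and the other 5 of the 9 were called. For the remaining settings the cause was not tested. The count of lower genes was 1 with the median shift and 1 with quantile normalization (ELF2 in both) and 1 within digits 16 (ENSSSCG00000035504). These 3 were named after their values were seen.

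The share of higher genes among those at an unadjusted p under 0.05 was 86.3%, against 51.6% with the median shift and 53.8% with quantile normalization. Leaving out each library gave 0 to 17 higher and 0 to 1 lower genes, 1 to 4 genes whose high-IMF values all lay above the low-IMF ones, differences of -3.58 to -1.73 percentage points for the share of the 10 most abundant genes and of -407 to 6465 for summed FPKM. It gave -0.028 to 0.106 for MYL9 and -0.049 to 0.167 for TAGLN. MYL9 was also -0.023 with the median shift and -0.041 with quantile normalization, where TAGLN was at -0.050. Within digits 15 the sign turned for CASQ2 (0.093), TNNI1 (-0.008), MYOZ1 (-0.076), INSR (0.016), PMP22 (0.026) and HBB (-0.209), and within digits 16 for AKT2 (-0.191) and TAGLN (-0.118). No paired analysis was possible because the labels give no replicate numbers, and of the first 6 digits of the title codes only 1 set is shared by high-IMF (library 31) and low-IMF animals (libraries 33 and 34). The depth of the libraries is unknown, so counting error at levels under 1 FPKM (LEP, SNCG, ADIG) is not in the errors given.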
